A study of Mus musculus with 35 samples.

Results

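Enriched and standard housing were compared in the posterior amygdala of B6D2F1N mice, a hybrid strain with C57BL/6 and DBA/2 parents. The comparison held 11 posterior libraries, 6 of enriched and 5 of standard mice, chosen by strain, portion and treatment label, out of 35 libraries from 19 female mice of 2 strains. Each library was 1 mouse, and no mouse entered both groups. From post-natal day 77, enriched mice had a playground connected to their cage for 1 h per day, while standard mice were handled without one. All mice were food-restricted, were trained on a touchscreen from post-natal day 70 for 37 to 90 days, and then took a cognitive judgment bias test. Cells of the amygdala were collected by laser capture, so each library is a bulk sample in which fewer cells of a type and less RNA per cell cannot be told apart. The mice lived in small groups, and the cage of each mouse was not given in the sources used here, so that mice sharing a cage were counted as separate. The study's methods and its portion names also give the positions along the brain in different orders, so posterior is used here only as the label has it.

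The amygdala links sensory input with emotional responses. Its basolateral part is built mostly of glutamatergic projection neurons held in check by GABAergic interneurons, and it lies close to the striatum, white matter tracts and the ventricle. Housing with toys, shelter and room to explore is known to act on neuronal plasticity in rodents, through neurotrophins, immediate early genes and synaptic proteins among others.

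The libraries held 18574153 to 25125524 counts on genes in standard mice and 17121764 to 21101828 in enriched mice. Between 21109 and 25531 genes had a count. Xist, the RNA that coats the inactive X chromosome in females, had 0 counts in standard mouse 1, both in its posterior and in its anterior library, against 1538 to 4831 counts in the other posterior libraries. Summed over Uty, Kdm5d, Eif2s3y and Ddx3y, 4 genes of the Y chromosome, both libraries of that mouse had 0 counts. The bias labels were not balanced between groups, with 3 optimist, 1 pessimist and 1 unclassified mouse under standard housing and 0 optimist, 2 pessimist and 4 unclassified mice under enriched housing.

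The standard libraries differed widely among themselves in several cell type markers. The summed level of 18 oligodendrocyte markers was 27616 and 22776 CPM (the counts-per-million scale, after TMM scaling) in standard mice 2 and 3, 9905 CPM in mouse 1, and 2684 and 3022 CPM in mice 4 and 5. In the enriched libraries it stayed between 8062 and 18797 CPM, inside the range of the standard ones. Adora2a, an adenosine receptor of striatal projection neurons, stood at 493 and 235 CPM in standard mice 4 and 5 and at no more than 61.2 CPM in any of the other 9 libraries. Dcn, which encodes the matrix protein decorin, stood at 1792 CPM in standard mouse 1, at 9.31 to 60.5 CPM in the other 4 standard mice and at 186 to 1142 CPM in enriched mice. The sum of the 10 meningeal fibroblast markers, most of which was Dcn in that mouse, was 1870 CPM there, 62.3 to 122 CPM in the other standard mice and 489.9 to 1254 CPM in enriched mice. Dcn was also most of the sum in every enriched mouse except mouse 3, so the sums largely follow this 1 gene. By mean log2 CPM of the 10 markers the groups overlapped. Enriched mice 4 and 5, at 1.998 and 2.225, lay below standard mice 2 and 3, at 2.529 and 2.524. Choroid plexus markers, which include the transthyretin gene Ttr, summed to 15143 and 15812 CPM in enriched mice 1 and 3 and to 466.5 to 4817 CPM in the 9 others. Standard mice 2 and 3 carried the library numbers 35 and 34, and standard mice 4 and 5 the numbers 13 and 11, with enriched mouse 2 between them at 12. Across 10470 genes, the deviations of standard mice 2 and 3 from the gene means correlated with Pearson's r = 0.79 and those of mice 4 and 5 with r = 0.52, the highest of all pairs, which is a description across genes. The part of these differences in the housing comparison was not tested, and results are given with and without these pairs of mice where it matters.

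**Figure D1:**
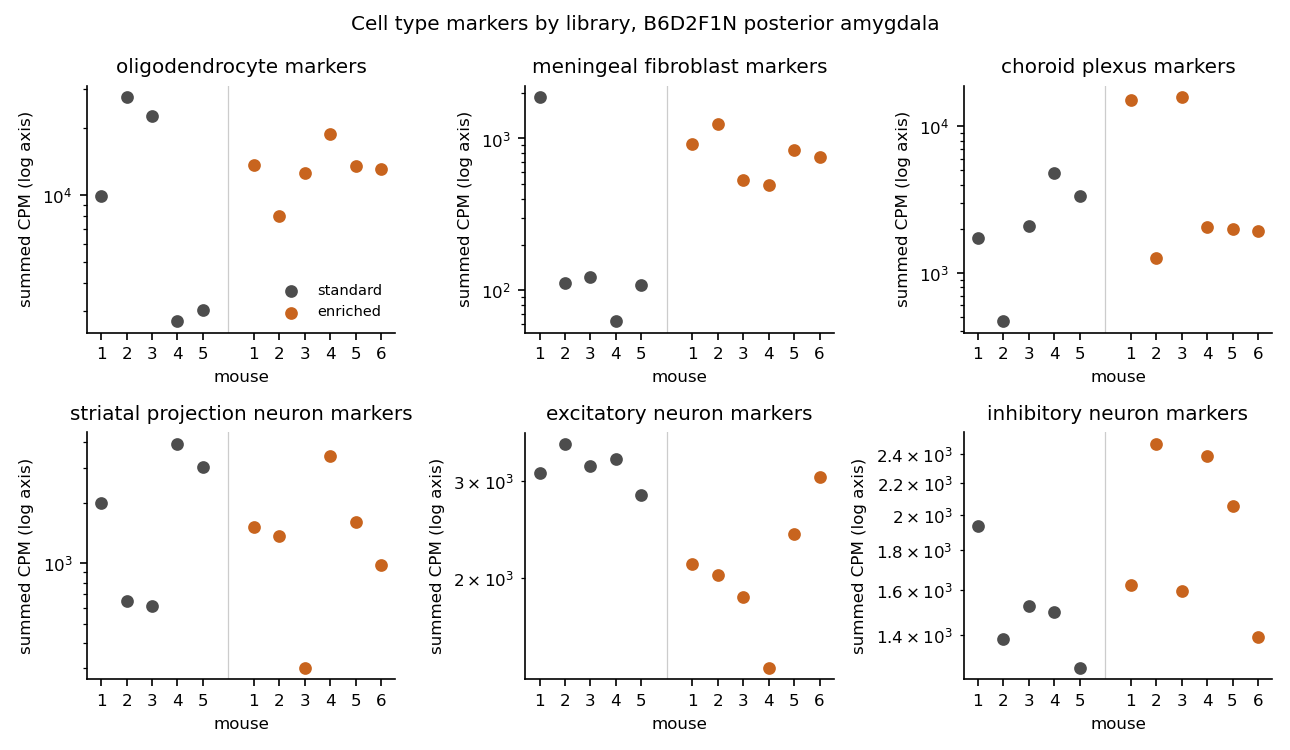
Summed CPM (log axis) of the markers of 6 cell types in each of the 11 libraries, standard mice 1 to 5 in grey and enriched mice 1 to 6 in orange. Standard mice 2 and 3 are highest and mice 4 and 5 lowest for oligodendrocyte markers, and enriched mice 1 and 3 are highest for choroid plexus markers. Standard mice 2 to 5 are lowest for the meningeal fibroblast sum, which was mostly Dcn in standard mouse 1 and in all enriched mice except mouse 3.

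No gene passed the threshold between enriched and standard mice in edgeR's quasi-likelihood test. Of 26028 genes tested, 0 had an adjusted p of at most 0.05 (0.00%), and the smallest adjusted p was 0.714. An unadjusted p under 0.05 was found for 1716 genes (6.59%), of which 853 (3.28%) were higher and 863 (3.32%) lower in enriched mice. limma-voom called 0 genes as well, with 1442 at an unadjusted p under 0.05, whereas the Wald test of DESeq2 called 14 (0.0643% of 21788 genes), 7 higher and 7 lower. Those 14 were Mpv17l, St6gal2, Prkce, Ntf3, Cib2, Rprm and Zfp827, lower in enriched mice, and Rreb1, Tnn, Kank4os, Gm38082, Gm38014, Gm19337 and Gm30239, higher in enriched mice. When mice were left out 1 at a time, DESeq2 called between 1 and 125 genes, with 1 call without standard mouse 5 and 125 without standard mouse 1. Only Mpv17l remained called in all 11 of these omissions, followed by Rreb1 in 10 and St6gal2 and Ntf3 in 7 each.

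The comparison could exclude large changes for well expressed genes. With 2 one-sided tests on the edgeR fit and adjustment over all genes, a change of 2-fold or more was excluded for 8579 genes (33.0% of those tested), and a change of 4-fold or more for 15093 (58.0%). A change of 1.5-fold was excluded for 0 genes. The answer turned on the level of a gene. At 100 CPM or more, 86.5% of 2011 genes had a 2-fold change excluded and 99.5% a 4-fold change, where the bounds of the 95% interval lay at a median distance of 0.45 from the log2 fold change. At 10 to 100 CPM these shares were 78.0% and 98.5% of 8057 genes, at 1 to 10 CPM 8.69% and 73.1% of 6353 genes, and at 0.1 to 1 CPM 0.00% and 7.43% of 6887 genes. Of 2720 genes under 0.1 CPM, neither a 2-fold nor a 4-fold change was excluded for any. At the other end, 39 of 26028 genes had a 95% interval that lay wholly beyond 2-fold, 12 of them with a mean of at least 1 CPM. Unlike the exclusions, these intervals carry no adjustment over genes, and 0 genes were called. For genes of at least 1 CPM the median change needed for an unadjusted p of 0.05 was 1.56-fold, while the median change needed for a single call over all genes was 4.66-fold. Genes with less spread between mice needed less than these medians.

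**Figure D2:**
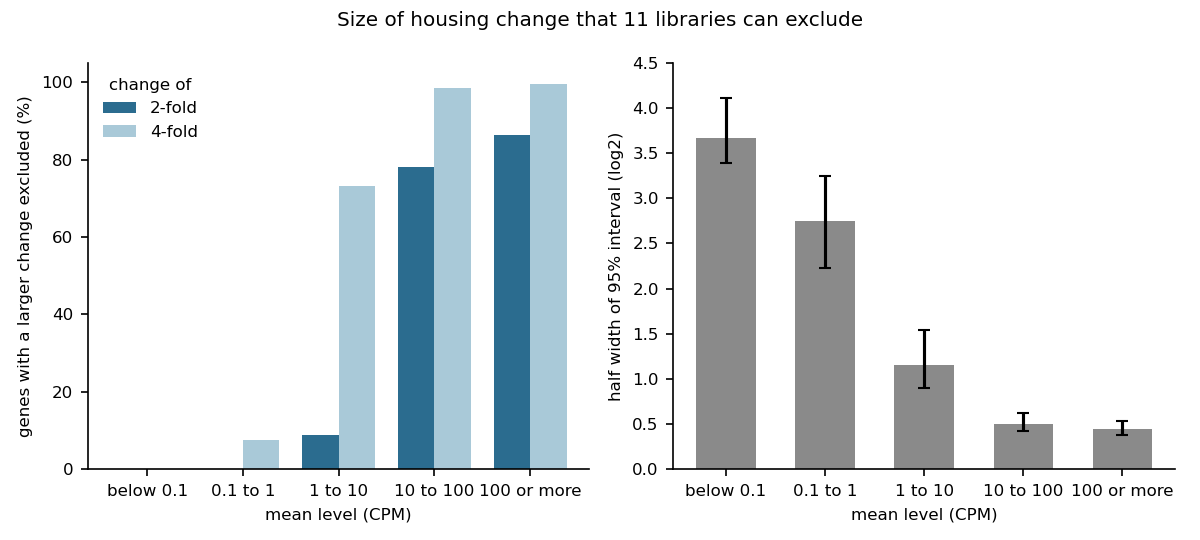
Left, percentage of genes for which a housing change of 2-fold or 4-fold or more was excluded, by mean level in CPM. Right, median distance from the log2 fold change to the bounds of its 95% interval in the same classes, with whiskers from the lower to the upper quartile; it narrows from 3.67 under 0.1 CPM to 0.45 at 100 CPM or more.

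Mpv17l had the smallest p. It lies at chr16:13903161-13949619 (GRCm38, plus strand) and encodes a small membrane protein of the Mpv17 family. Its level was 69.2, 81.6, 69.1, 96.2 and 93.4 CPM in standard mice and 39.4, 50.3, 36.8, 37.9, 48.8 and 40.4 CPM in enriched mice. Every enriched library was below every standard one, as was the case for 54 genes (0.329%) of the 16421 with a mean of at least 1 CPM. The log2 fold change was -0.95 ± 0.163 (SE), with an unadjusted p of 2.74e-05, an adjusted p of 0.714 in edgeR and of 0.000249 in DESeq2. Leaving out any 1 mouse kept the log2 fold change between -1.03 and -0.89.

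2 genes of signalling between and within neurons had their enriched libraries at the low end. Ntf3 (chr6:126101412-126166910, minus strand) encodes neurotrophin-3, the ligand of the TrkC receptor. Its level was 15.0, 5.77, 9.12, 23.8 and 32.0 CPM in standard mice and 2.71, 2.33, 3.52, 7.69, 4.99 and 2.78 CPM in enriched mice. Both groups overlapped only in standard mouse 2 and enriched mouse 4, and the highest values were those of standard mice 4 and 5. The log2 fold change was -2.10 ± 0.435 (unadjusted p = 0.000239), with a 95% interval from -3.02 to -1.17. Prkce (chr17:86167785-86657919, plus strand) encodes protein kinase C epsilon, a kinase activated by diacylglycerol. It stood at 426, 482, 423, 447 and 532 CPM in standard mice and at 281, 283, 273, 289, 375 and 300 CPM in enriched mice, with no overlap. Its log2 fold change was -0.62 ± 0.158 (unadjusted p = 0.00123), and it was the one DESeq2-called gene for which a 2-fold change was excluded in edgeR (adjusted p = 0.0458).

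The other neurotrophin genes give the setting of Ntf3. Of 19 members of the neurotrophin system tested, 11 had a higher and 8 a lower mean in enriched mice, with a median log2 fold change of 0.07, and only Ntf3 had an unadjusted p under 0.05. Its receptor gene Ntrk3 had means of 181 and 186 CPM in standard and enriched mice, and the brain-derived neurotrophic factor gene Bdnf 62.8 and 58.5 CPM. For both receptor genes Ntrk3 and Ntrk2 a 2-fold change was excluded (adjusted p = 0.00173 and 0.0012), as it was for Bdnf (adjusted p = 0.0242). Ntrk3 and Bdnf were looked up after values were seen. In the protein kinase C family, 11 of 15 members were lower and 4 higher with a median of -0.11 (0.05 without standard mice 2 and 3), and Prkcb was the only other member with an unadjusted p under 0.05, at -0.64 ± 0.233.

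4 further genes called by DESeq2 had their enriched libraries below all standard ones. St6gal2 (chr17:55445382-55514581, plus strand), a sialyltransferase that caps glycans with sialic acid, stood at 49.2, 46.0, 32.9, 59.3 and 73.4 CPM in standard and at 22.3, 28.4, 22.3, 17.1, 22.8 and 29.7 CPM in enriched mice. Its log2 fold change was -1.13 ± 0.217 (unadjusted p = 8.94e-05). Rprm (chr2:54084093-54085552, minus strand), named reprimo and known from p53-dependent arrest of the cell cycle, stood at 41.4, 48.1, 62.6, 137 and 221 CPM in standard mice and at 21.8 to 40.9 CPM in enriched ones, with a median of 28.9 CPM. Standard mice 4 and 5 again held the highest levels, and without this pair the log2 fold change went from -1.73 to -0.72, and without the mice labelled optimist to -0.54. The log2 fold change of Ntf3 was -1.31 and -1.38 under these omissions. Cib2, a calcium- and integrin-binding protein, stood at 9.77 to 15.7 CPM in standard mice, with a median of 14.1 CPM, and at 2.03 to 8.51 CPM in enriched mice, with a median of 4.18 CPM. Its log2 fold change was -1.56 ± 0.347, and since it overlaps an exon of Sh2d7 on the opposite strand and the strand setting of the counting was not given in the sources used here, reads of the pair cannot be told apart. Zfp827, a zinc finger protein, stood at 18.2 to 31.4 CPM in standard mice and at 7.43 to 15.3 CPM in enriched mice, for a log2 fold change of -1.09 ± 0.257.

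Rreb1 had the smallest p among protein-coding genes with a higher level in enriched mice. Located at chr13:37778400-37952005 (plus strand), it encodes a zinc finger transcription factor that binds Ras-responsive elements. Its level was 15.7, 6.77, 8.45, 7.57 and 7.89 CPM in standard mice and 27.5, 24.8, 24.7, 20.9, 16.9 and 21.5 CPM in enriched mice. All enriched libraries were above all standard ones, as for 38 genes (0.231%) of at least 1 CPM, and standard mouse 1 lay closest to them. The log2 fold change was 1.29 ± 0.252 (unadjusted p = 0.00014), and without standard mouse 1 it was 1.54, with an adjusted p of 0.0253 in edgeR.

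Of the other genes called as higher by DESeq2, 4 had a mean under 1 CPM in both groups. Tnn, which encodes the matrix protein tenascin-N, had 0 counts in all 5 standard libraries and 1, 24, 47, 11, 28 and 0 counts in enriched ones. Set against a floor of 3 counts in each standard library, its mean of 0.99 CPM in enriched mice was at least 6.87-fold higher. Kank4os, an antisense transcript, had 1 count in the 5 standard libraries together and 6, 16, 53, 30, 0 and 9 counts in the enriched ones. Gm19337 had 1 count in the standard libraries together and 5 to 16 in the enriched ones, and Gm30239 had 2 counts together and 2 to 50. Of the unconfirmed transcripts Gm38082 and Gm38014, the levels were 0.134 to 1.42 CPM against 1.87 to 3.44 CPM, and 2.32 to 3.59 CPM against 4.48 to 9.77 CPM. Neither pair of ranges overlapped.

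**Figure D3:**
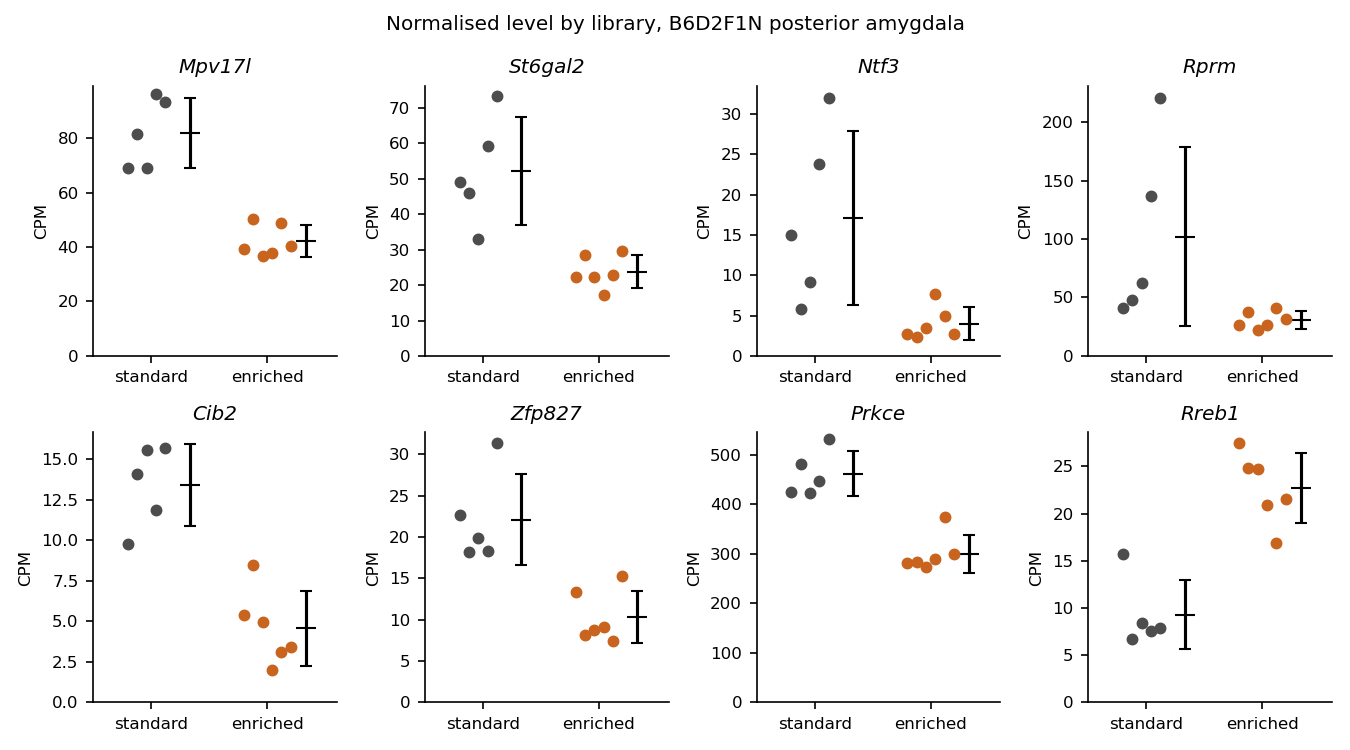
CPM of 8 genes called by DESeq2 in each standard (grey) and enriched (orange) library, with the mean and SD beside the points and axes from 0. Ranges are separate for all but Ntf3, whose standard mouse 2, at 5.77 CPM, lies under enriched mouse 4, at 7.69 CPM.

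Among the protein-coding genes of at least 1 CPM with the smallest p, 3 others were lower in enriched mice. Satb1, a chromatin organiser, stood at 16.7, 49.3, 41.0, 53.7 and 60.8 CPM in standard and at 13.2 to 28.3 CPM in enriched mice, with a median of 16.4 CPM. Fbxo2, a brain-enriched subunit of ubiquitin ligases that recognises glycoproteins, stood at 31.1 to 81.0 CPM in standard and at 15.2 to 29.9 CPM in enriched mice. Camk2n1, an inhibitor of CaM kinase II, stood at 189 CPM in standard mouse 1, at 454 to 635 CPM in the other 4 standard mice and at 154 to 267 CPM in enriched mice. For Satb1 and Camk2n1 standard mouse 1 lay within the enriched range, and without it both had an adjusted p of 0.0253 in edgeR. Their log2 fold changes over all mice were -1.30 and -1.13, and that of Fbxo2 was -1.18.

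The matching genes with a higher level in enriched mice were Rhpn1, Chrd, Plekhg2, Tsnaxip1, Plxnb2, Nfxl1 and Nynrin. Plxnb2, a receptor for class 4 semaphorins, had 28.7 to 45.5 CPM in standard mice and 41.2 to 83.9 CPM in enriched mice, with a log2 fold change of 0.70 ± 0.201. Chrd, the bone morphogenetic protein antagonist chordin, had 9.12 to 22.3 CPM and 19.3 to 39.1 CPM. The log2 fold changes of the 7 genes lay between 0.70 and 3.48, and their unadjusted p between 0.00229 and 0.00354.

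Members of synaptic lists were mostly lower in enriched mice, by small amounts. The median log2 fold change was -0.31 for 23 plasticity kinases and phosphatases, of which 19 were below 0, -0.30 for 20 postsynaptic density scaffold genes, of which 17 were below 0, and -0.27 for 30 genes of the vesicle release machinery, of which 26 were below 0. Over all genes of at least 1 CPM the median was -0.002, and 8251 of 16421 were below 0. Abundant genes were more often lower, with 1898 of 2776 protein-coding genes below 0 in the highest of 5 classes of level, where the median was -0.09. In these 3 lists 6, 2 and 5 members had an unadjusted p under 0.05, each of them lower in enriched mice, and 0 members were called. Such a p with a lower level was found for 3.09% of all genes of at least 1 CPM, and for 182 of 2776 protein-coding genes in the highest of 5 classes of level. A 2-fold change was excluded for 17, 12 and 18 of the members, and a 4-fold change for 23, 20 and 28.

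Camk2a, the alpha subunit of CaM kinase II, led the kinases. It stood at 2043, 2305, 2174, 2803 and 2226 CPM in standard mice and at 1370, 950, 1186, 874, 1596 and 1983 CPM in enriched mice, with no overlap. Its log2 fold change was -0.80 ± 0.229 (unadjusted p = 0.00306). Adcy1, a calmodulin-stimulated adenylyl cyclase, stood at 155 to 433 CPM and at 74.1 to 210 CPM, with the highest levels in standard mice 2 and 3. Without that pair its log2 fold change was -0.44, against -1.01 over all mice.

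In the release machinery, Syn1, which encodes the vesicle-tethering protein synapsin I, stood at 51.6 to 95.4 CPM in standard and at 22.3 to 66.8 CPM in enriched mice, for a log2 fold change of -0.79 ± 0.246. Napb, a cofactor of SNARE disassembly, had means of 462 and 328 CPM. Syt1, the calcium sensor of release and the most abundant member, stood at 2387 to 3538 CPM and at 1415 to 3155 CPM, so the groups overlapped. Among scaffold genes, Homer2 had 20.8 to 80.0 CPM and 13.9 to 40.1 CPM, with the highest levels in standard mice 2 and 3, and its log2 fold change went from -0.83 to -0.11 without them. Without standard mice 2 and 3 the median log2 fold change of the release list was -0.09, and those of the scaffold and kinase lists were -0.24 and -0.28. Without standard mice 4 and 5 the 3 medians were -0.38, -0.27 and -0.21.

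Ion channel and receptor genes also had more members below than above 0. Of 13 sodium channel subunits 12 were below 0 (median -0.34), of 26 calcium channel subunits 21 (median -0.19), and of 86 potassium channel subunits 52 (median -0.12). By level, 1898 of 2776 protein-coding genes of the highest class were below 0, against 8251 of 16421 genes of at least 1 CPM. None of the sodium channel members had an unadjusted p under 0.05, against 3 lower and 1 higher of the calcium channel members and 8 lower of the potassium channel members. Kcnc2, a delayed rectifier of fast-spiking neurons, had 118 to 247 CPM in standard and 75.5 to 138 CPM in enriched mice, with a log2 fold change of -0.73 ± 0.216. Of 15 GABA-A receptor subunits 10 were below 0, with a median of -0.26, and 3 lower and 1 higher member had an unadjusted p under 0.05. Without standard mice 4 and 5 the median was 0.03, and without standard mice 2 and 3 it was -0.48. Gabrd, the extrasynaptic delta subunit, stood at 39.3, 80.1, 92.0, 108 and 82.6 CPM in standard mice and at 36.5, 34.6, 14.9, 34.3, 20.1 and 71.4 CPM in enriched mice. Only enriched mouse 6 and standard mouse 1 broke the separation, and the log2 fold change was -1.19 ± 0.339. Glutamate receptors of the AMPA, NMDA and kainate classes had a median of -0.03 over 17 members. Grin2a, an NMDA receptor subunit, had means of 504 and 296 CPM, for a log2 fold change of -0.77 ± 0.252.

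Immediate early genes, which neurons transcribe within minutes of strong activity, had the lowest median of all pathway lists, at -0.52, with 17 of 20 members below 0. Egr3 stood at 18.5 to 37.0 CPM in standard and at 6.80 to 28.3 CPM in enriched mice, and Egr1 at 12.2 to 57.3 CPM and at 12.9 to 25.3 CPM, and both ranges overlapped. Their log2 fold changes were -0.83 ± 0.313 and -0.83 ± 0.331. The list turned on standard mice 2 and 3. Without them its median was -0.05, and without standard mice 4 and 5 it was -0.65. Fos had means of 10.9 and 10.2 CPM, with a log2 fold change of -0.09 ± 0.749.

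Markers of neuron types were unequal. Excitatory neuron markers summed to 2833 to 3502 CPM in standard mice and to 2125, 2031, 1850, 1378, 2404 and 3051 CPM in enriched mice, where mouse 6 overlapped with the standard range. Camk2a alone made up 2043 to 2803 CPM of the standard sums and 874 to 1983 CPM of the enriched sums. The sums thus largely follow this 1 gene, already described among the kinases. The median log2 fold change of the 12 markers was -0.40, with 7 below 0, and without standard mice 2 and 3 it was 0.01. The vesicular glutamate transporter gene Slc17a7 had means of 206 and 209 CPM, and a 2-fold change was excluded for it (adjusted p = 0.00839). Inhibitory neuron markers had a median of 0.25, with 11 of 14 above 0, and Gad1, which makes GABA, stood at 197 to 271 CPM in standard and at 219 to 354 CPM in enriched mice. Of 12 striatal projection neuron markers 10 were below 0 (median -0.47). Foxp1, a transcription factor of these neurons, stood at 57.4, 144, 99.5, 261 and 178 CPM in standard mice and at 69.6, 35.2, 42.1, 62.3, 43.7 and 83.6 CPM in enriched mice. Its log2 fold change was -1.40 ± 0.324, while that of Adora2a, -3.50 over all mice, was 1.12 without standard mice 4 and 5, and the median of the list was then 0.28.

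**Figure D4:**
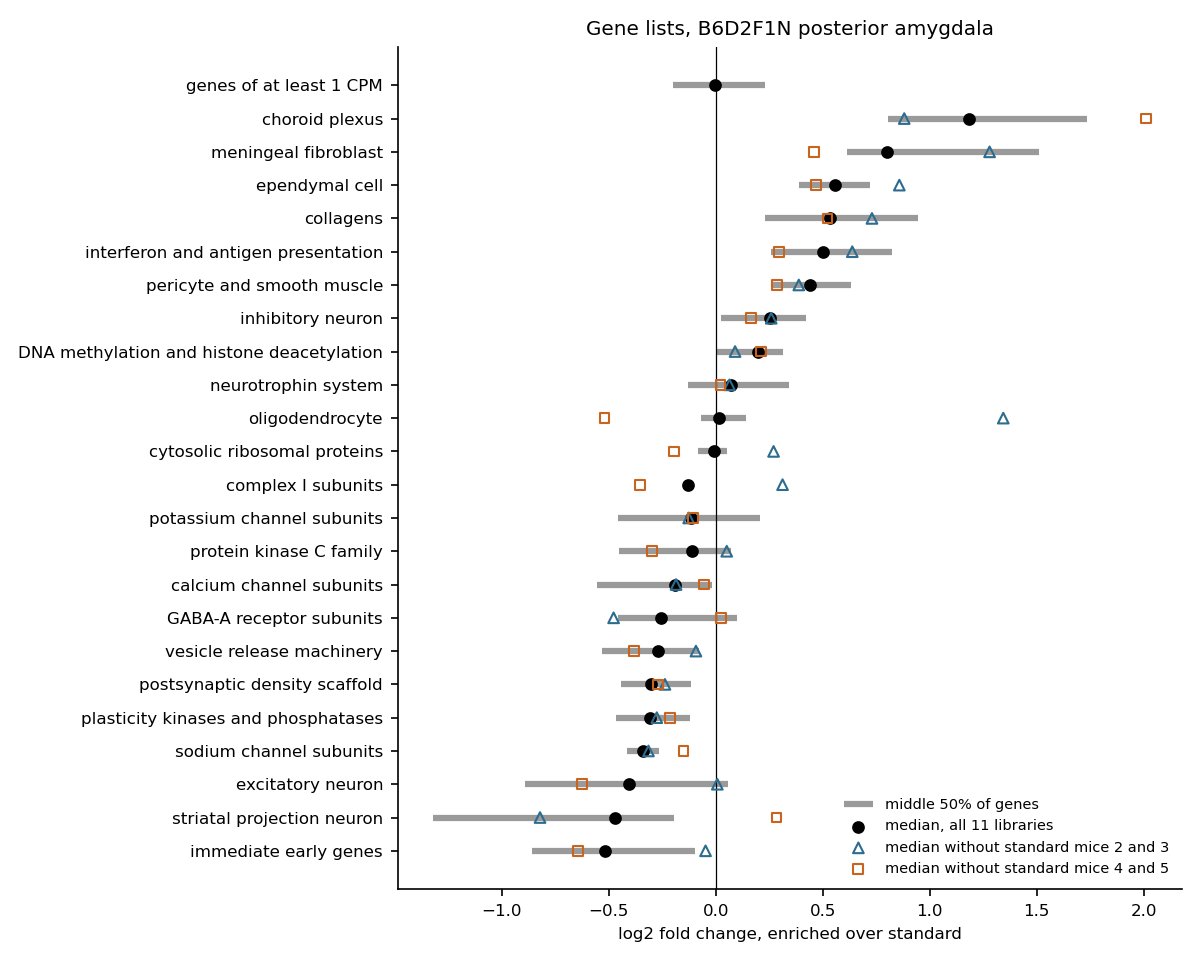
Median log2 fold change (enriched over standard) of 23 gene lists beside all genes of at least 1 CPM, with the middle 50% of genes as a bar. Open triangles give the median without standard mice 2 and 3, and open squares without standard mice 4 and 5, which place oligodendrocyte markers at 1.34 and -0.52.

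In several lists of barrier and matrix tissues most members had a higher mean in enriched mice, in part through a few libraries. Collagens had 40 of 44 members above 0 with a median of 0.53, choroid plexus markers 10 of 10 with a median of 1.18, meningeal fibroblast markers 10 of 10 with a median of 0.80, and ependymal markers 10 of 10 with a median of 0.56. In these 4 lists 7, 1, 3 and 0 members had an unadjusted p under 0.05, all higher in enriched mice, as did 1.99% of all genes of at least 1 CPM, and Col3a1 and Col1a1 stood in both the collagen and the meningeal list. The summed choroid plexus markers had medians of 2097 CPM in standard and 2029 CPM in enriched mice, and only enriched mice 1 and 3 exceeded the standard range. Ependymal sums were 62.8 to 198 CPM in standard mice and 53.1 to 330 CPM in enriched mice, where mice 2, 5 and 6 had 53.1, 79.2 and 68.1 CPM. Endothelial markers had 8 of 12 members above 0 and a median of 0.10. Col9a3, a collagen of the fibril surface, stood at 7.76 to 16.4 CPM in standard mice and at 93.5 and 114 CPM in enriched mice 1 and 3, the libraries with the highest choroid plexus sums, but at 4.67 to 19.3 CPM in the other 4. Col8a1 followed the same libraries, with 31.4 and 56.1 CPM in enriched mice 1 and 3 and 2.08 to 7.60 CPM in the 9 others. Ttr stood at 14334 and 14654 CPM in these mice and at 355 to 4598 CPM in the others. The part of choroid plexus RNA in the collagen values was not tested.

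Interferon and antigen presentation genes had 19 of 20 members above 0 with a median of 0.50, against 8170 of 16421 genes of at least 1 CPM. Bst2, an interferon-induced antiviral membrane protein, stood at 4.15 to 8.45 CPM in standard mice and at 29.4, 14.2, 19.6, 14.5, 3.83 and 4.96 CPM in enriched mice, where mice 5 and 6 lay within the standard range. The light chain gene of class I antigen presentation, B2m, stood at 63.1 to 144 CPM and at 113 to 173 CPM. Only Bst2 and Zbp1 of this list had an unadjusted p under 0.05, and Zbp1 had 0 counts in all standard libraries. Such a p with a higher level was found for 3.28% of all tested genes. Microglia markers, by comparison, had a median of 0.04 over 14 members, and a 2-fold change was excluded for 12 of them. Astrocyte markers had a median of 0.13, with a 2-fold change excluded for 10 of 14. Without standard mice 4 and 5 both medians were below 0, at -0.01 and -0.04.

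Oligodendrocyte markers had 9 of 18 members on each side of 0 and a median of 0.02, but this hid the split of the standard group. Without standard mice 2 and 3 the median was 1.34, and without standard mice 4 and 5 it was -0.52. The myelin basic protein gene Mbp stood at 1611, 8055, 7411, 373 and 442 CPM in standard mice and at 1187 to 5470 CPM in enriched mice, and its 95% interval ran from -1.49 to 1.41. A 2-fold change was excluded for only 2 of the 18 markers, and a 4-fold change for 18. By mean log2 CPM of the 18 markers, enriched mice were higher by 0.556, with an SD of 1.525 among standard and 0.311 among enriched mice.

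For 3 lists of housekeeping machinery a 2-fold change was excluded for most members. Cytosolic ribosomal protein genes had a median of -0.007 over 82 members with 0 at an unadjusted p under 0.05, and a 2-fold change was excluded for 76 of them. For complex I subunits the median was -0.13, with 32 of 37 below 0 and a 2-fold change excluded for 36. For proteasome subunits it was -0.10, with 32 of 39 below 0 and a 2-fold change excluded for 34. Of protein-coding genes in the highest class of level, 1898 of 2776 were below 0. The sign of all 3 medians depended on the pairs of standard mice. Without mice 2 and 3 they were 0.27 for ribosomal protein, 0.31 for complex I and 0.10 for proteasome genes, and without mice 4 and 5 they were -0.19, -0.36 and -0.21.

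Genes of the stress axis were examined for their place in the amygdala. The corticotropin-releasing hormone system had 7 of 12 members above and 5 below 0 with a median of 0.09. Crhbp, which binds and sequesters the hormone, stood at 170, 59.1, 61.5, 34.6 and 55.3 CPM in standard mice and at 119, 294, 129, 220, 202 and 86.1 CPM in enriched mice, for a log2 fold change of 1.20 ± 0.377 (unadjusted p = 0.00693). Only standard mouse 1 lay above any enriched library. Ucn, encoding the related peptide urocortin, had 0, 5, 8, 18 and 67 counts in standard libraries and 1 count in the 6 enriched ones together. Glucocorticoid response genes had a median of -0.12 over 16 members, with 0 at an unadjusted p under 0.05 and a 2-fold change excluded for 11. Their median was 0.27 without standard mice 2 and 3 and -0.38 without standard mice 4 and 5, and that of the hormone system was 0.28 and -0.05.

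The direction of small differences went with the level of a gene. Of 13880 protein-coding genes of at least 1 CPM, cut into 5 classes of 2776 by mean level, the median log2 fold change was 0.17 in the lowest class and then 0.06, 0.002 and -0.05, and it was -0.09 in the highest. In the lowest class 73 genes with an unadjusted p under 0.05 were higher and 33 lower in enriched mice, and in the highest class 11 were higher and 182 lower. Over all genes of at least 1 CPM, 833 (5.07%) had such a p, of which 326 (1.99%) were higher and 507 (3.09%) lower, so that 60.9% were lower. This share was 49.2% without standard mice 2 and 3 and 51.8% with a term for the bias label. By gene type, counted over all tested genes of any level, 473 of 16714 protein-coding genes were higher and 599 lower at such a p. Of 4208 long noncoding RNAs 180 were higher and 137 lower, and of 2323 pseudogenes 89 and 53. Their levels differed, with a median of 16.1 CPM for protein-coding genes and 0.166 CPM for pseudogenes. Among protein-coding genes of at least 1 CPM, 277 were higher and 479 lower. The 5 classes of gene span, cut from these last genes, gave 37 higher and 76 lower genes among the shortest and 59 higher and 159 lower genes among the longest.

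The same genes were then read in C57BL/6J posterior libraries (4 enriched and 4 standard mice) and in the anterior libraries of 10 of the 11 B6D2F1N mice. edgeR called 4 of 24526 genes in C57BL/6J posterior amygdala (0.0163%), with 2515 at an unadjusted p under 0.05 (10.3%), and 0 of 24639 in B6D2F1N anterior amygdala, with 1553 (6.30%). Mpv17l had a log2 fold change of -0.55 in C57BL/6J (95% interval -1.01 to -0.10) and of 0.47 in the anterior portion (-0.08 to 1.02). Ntf3 had 1.07 in C57BL/6J (0.22 to 1.91) and 1.29 in the anterior portion (-0.08 to 2.66). Prkce had -0.19 and -0.01, and Rreb1 -0.67 and 0.09, respectively, with intervals that included 0. Of these comparisons, the anterior one used the same mice, whereas the C57BL/6J one shared neither mice nor libraries.

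Tests of the differences themselves called 0 genes. The strain by housing interaction over 19 posterior libraries had 2335 of 27871 genes (8.38%) at an unadjusted p under 0.05 and a smallest adjusted p of 0.327. The portion by housing interaction, over 10 mice with both portions and with the mouse as a block, had 1099 of 27761 (3.96%) and a smallest adjusted p of 0.6405. For Ntf3 the strain interaction was -3.15 on the log2 scale with an unadjusted p of 5.94e-05, and for Rreb1 it was 1.97 with 0.000443. For Mpv17l the portion interaction was -1.40 with an unadjusted p of 7.66e-05, and for Fbxo2 it was -1.87 with 2.31e-05. None of these 4 passed adjustment. They were named for their housing difference in the B6D2F1N posterior libraries, which also enter both interactions. Their unadjusted p is therefore small in part by that choice and cannot be read as a test of its own.

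**Figure D5:**
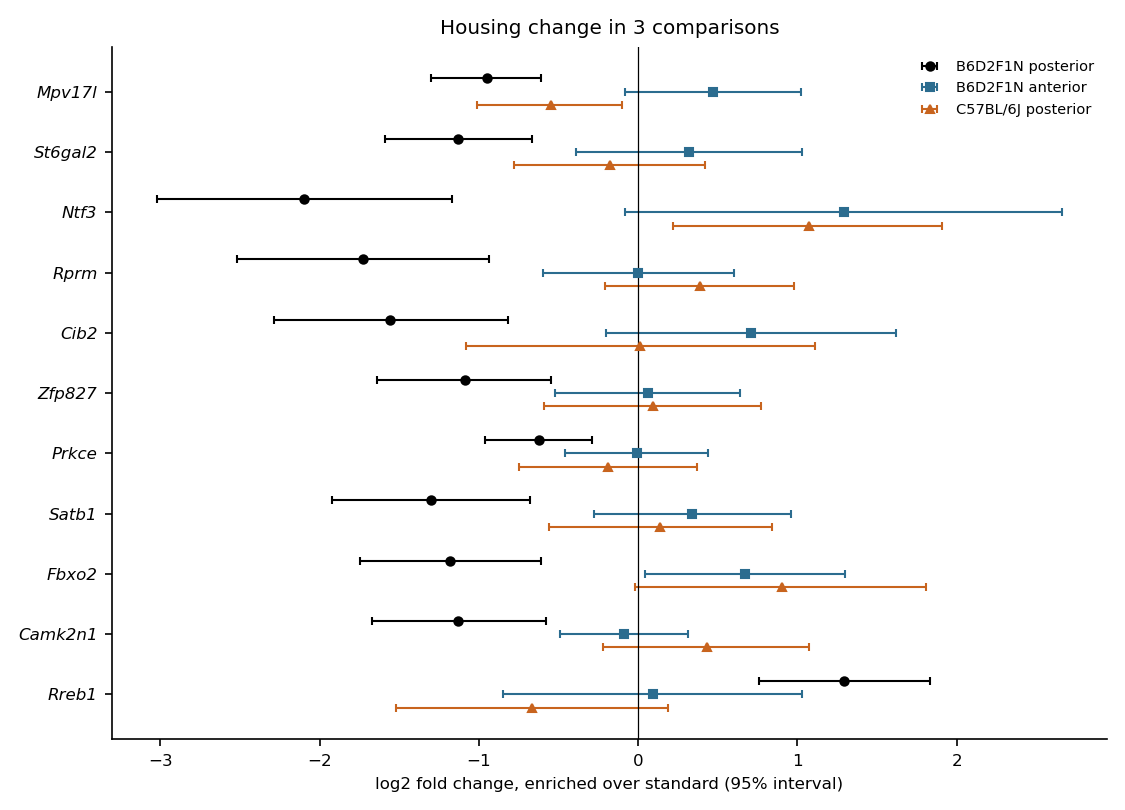
Log2 fold change (enriched over standard) with its 95% interval for 11 genes in B6D2F1N posterior, B6D2F1N anterior and C57BL/6J posterior amygdala. The genes were ranked on the first of these, and of the 11 only Mpv17l has a C57BL/6J interval on the same side of 0.

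Some lists differed in sign between the comparisons and others did not. The vesicle release list had a median of 0.35 in C57BL/6J and -0.02 in the anterior portion, against -0.27 here, and immediate early genes had 0.59 and 0.32 against -0.52. GABA-A receptor subunits had -0.57 and 0.01 against -0.26. Interferon and antigen presentation genes had 0.035 and -0.012 against 0.50, with 10 of 20 and 9 of 19 members above 0, against 19 of 20 here. Collagens, with 0.39 and 0.03 against 0.53, ependymal markers, with 1.15 and 0.64 against 0.56, and proteasome subunits, with -0.07 in both against -0.10, kept their sign. In the anterior portion, though, only 23 of 44 collagens were above 0, against 40 of 44 here. Meningeal fibroblast markers had -0.08 and -0.34 against 0.80, and choroid plexus markers -0.36 and 3.44 against 1.18. Oligodendrocyte markers had 18 of 18 members above 0 in C57BL/6J, 13 of them with an unadjusted p under 0.05, and a median of 0.88, and 17 of 18 above 0 in the anterior portion, with a median of 0.41, against 0.02 here. Of the 832 genes of at least 1 CPM with an unadjusted p under 0.05 here that were tested in C57BL/6J, 422 (50.7%) had the same sign there, against 52.1% of 16378 genes of that level. In the anterior libraries of the same mice the share was 38.1% of 830 genes, against 47.6% of 16395 genes. It was 31.6% for the 507 genes that were lower here and 48.3% for the 323 that were higher.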

How the data were processed

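The authors sequenced single reads of 72 bases. Trimming used Trimmomatic 0.38, alignment HISAT2 2.1.0 on GRCm38, and counting per gene HTSeq 0.11.2. The deposited values are raw read counts per Ensembl gene, without normalization. The strand setting and annotation release were not given in the sources used here. HTSeq's totals of unassigned reads were left out. Symbols, types and positions came from GENCODE M21, which held 52403 of 52636 gene IDs.

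Genes with at least 10 counts over the libraries of a comparison were scaled by TMM and tested with edgeR 4.0.16 (quasi-likelihood F test) in R 4.3.3, without covariates, with an adjusted p (Benjamini-Hochberg, all genes tested) of at most 0.05 as threshold. DESeq2 1.42.0, as in the study's methods, and limma 3.58.1 (voom) were alternatives. Intervals are 95% intervals of the edgeR log2 fold change. A change of 1.5-, 2- or 4-fold was excluded where 2 one-sided tests on that estimate and its SE passed adjustment. CPM values carry no prior count, and log2 CPM values a prior count of 2. A floor of 3 counts per library was used for lower bounds, and depth limits cover counting error only. Interactions were fitted over 19 posterior libraries (strain by housing) and over 10 B6D2F1N mice with both portions (portion by housing, mouse as a block, since both libraries come from 1 mouse). The scripts were tested on simulated data.

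The comparison, the gene lists and the rule for named genes were chosen with earlier results of these data known. Named were genes past the threshold (0 were), the 10 genes the study lists for this comparison, the 8 protein-coding genes of at least 1 CPM with the smallest p in each direction, of each list the 2 tested members with the smallest p and the most abundant one, Xist and the 4 Y-linked genes. The calls Gm38082, Gm38014, Gm19337 and Gm30239 of DESeq2, and Bdnf, Ntrk3, Fos, Slc17a7, Mbp, Kdm6a, Kdm5c, Eif2s3x and Ddx3x, were added after their values were seen. No pair of libraries held identical counts in 406 pairs compared. Anterior libraries of C57BL/6J mice were not used here.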

Additional observations from a re-analysis of the deposited data

Results flagged for a closer look

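Within groups, the highest or lowest library was compared with the others by Dixon's test for 70 sets of values. It set apart 8. Chance flags about 1 in 20 of independent sets, but these sets share libraries. Most of their genes were also chosen by their p between the groups, so the count cannot be set against that rate. In the standard group, mouse 1 was highest for Rreb1 (15.7 CPM, against 6.77 to 8.45 CPM in the others), lowest for Camk2n1 (189 CPM, against 454 to 635 CPM), lowest for Xist (0.00 CPM, against 73.3 to 215 CPM), highest for summed astrocyte markers (13032 CPM, against 8598 to 9561 CPM) and highest for summed meningeal fibroblast markers (1870 CPM, against 62.3 to 122 CPM). Of that last sum, 1792 CPM were Dcn, while Col3a1 stood at 0.00 CPM and Col1a1 at 1.47 CPM. By mean log2 CPM of the 10 meningeal markers, mouse 1, at 2.255, lay below standard mice 2 and 3, at 2.529 and 2.524. Standard mouse 4 was lowest for Nfxl1, with 2.05 CPM against 5.50 to 6.67 CPM. In the enriched group, mouse 5 was highest for Prkce, with 375 CPM against 273 to 300 CPM, and mouse 2 was highest for summed pericyte and smooth muscle markers, with 703 CPM against 433 to 491 CPM. Of the 8 values, 5 belonged to 1 library, standard mouse 1.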

How the results depend on the processing

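The count of 0 called genes was the same with limma-voom, with DESeq2's size factors or upper quartile factors in edgeR, with filterByExpr or no minimum count, with robust empirical Bayes, in 1 fit of the 4 posterior groups, with only the mice that had both portions, without the mice labelled optimist, and with a term for the bias label, the library number or the sample number. DESeq2's Wald test called 14. With 1 mouse left out, edgeR called 0 to 10 genes, the 10 only without standard mouse 1 (8 higher and 2 lower, namely Gm12056, Tacr1, Slc7a3, Ptprc, Dcn, Ptpru, Rreb1 and Grin3a, and Satb1 and Camk2n1, named after their values were seen), and DESeq2 called 125, 10, 13, 5 and 1 without standard mice 1 to 5, and 5, 97, 3, 7, 9 and 28 without enriched mice 1 to 6. Without standard mice 2 and 3 together, an alternative chosen after seeing the data, edgeR called 0 and DESeq2 285, and without standard mice 4 and 5 they called 0 and 14. Of the 14 genes that DESeq2 called over all mice, 12 were kept without mice 2 and 3. Without mice 4 and 5 only 1 was kept, Mpv17l, so the equal count of 14 hides other genes. The cause of these differences was not tested. The count of genes with a 2-fold housing change outside their interval, by the adjusted one-sided tests, was 7574 to 8337 with 1 mouse left out, and 6138 and 6856 without these pairs.

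DESeq2 called 37 genes for the strain by housing interaction, 42 for the portion by housing interaction, 319 for housing in C57BL/6J posterior and 8 in B6D2F1N anterior amygdala. Leaving out 1 mouse, edgeR called 0 to 14 genes for the first interaction (14 without B6D2F1N standard mouse 1), 0 to 4 for the second (4 without standard mouse 1 and 1 without standard mouse 2), and 0 to 172 for C57BL/6J posterior (172 without enriched mouse 3 and 0 without any other mouse). The portion interaction called 0 genes both with and without the mouse block, with 2078 at an unadjusted p under 0.05 without the replicate block.

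Over 77 of the named genes the alternatives gave 1991 log2 fold changes, of which 3 reversed, all of Adora2a, at 1.23 without the mice labelled optimist, 0.31 with a term for the bias label and 1.12 without standard mice 4 and 5. These 77 were genes listed by the study, called by DESeq2 or of smallest p, and list members with an unadjusted p under 0.05. They were picked on the same libraries that the alternatives reuse, so the few reversals are no measure of stability. Of 765 values of list medians, 11 moved by more than the SD between libraries. That SD was taken within groups and includes the spread among the standard mice, so it is a wide yardstick. The sign of the median reversed in 6 of 15 alternatives for cytosolic ribosomal protein genes and in 5 for oligodendrocyte markers. It reversed in 0 for collagens and for the vesicle release list, and in at most 8 for any list. Between groups no paired analysis was possible because no mouse was in both housing groups. Depth limits what genes under 1 CPM can show, since a 2-fold change was excluded for 0 of them.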

Other observations

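Standard mouse 1 had the lowest of the 11 posterior levels at 2 of 4 X-linked genes known to escape X inactivation in mouse. Eif2s3x, a translation initiation factor gene, was at 10.5 CPM in this mouse and at 18.4 to 35.0 CPM in the others, and Kdm6a, a histone demethylase gene, at 25.8 CPM against 28.1 to 57.5 CPM. Kdm5c and Ddx3x, at 25.4 and 96.6 CPM, lay within the ranges of the others, 21.2 to 39.7 CPM and 71.7 to 151 CPM. Over 361 X-linked genes of at least 10 CPM, the median log2 difference of this library from the mean of the others was 0.05, against 0.04 over 9687 autosomal genes, and the same X-linked median ran from -0.10 to 0.12 in the other libraries.

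The 22 genes of DNA methylation and histone deacetylation had 16 members above 0, a median of 0.20 and 0 members at an unadjusted p under 0.05, with a 2-fold change excluded for 19. Genes of the circadian clock had a median of -0.13 over 19 members, with 0 at that p.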
